A study of Mus musculus with 4 samples.

Results

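NF-kB is a family of dimeric transcription factors that carries signals from Toll-like receptors, the IL-1 receptor and TNF receptors to inflammatory genes. The data below follow 42 named genes of this pathway in mouse macrophages. They were chosen by symbol, and all 42 were present among the 23735 loci of the deposited table. They comprise 5 Rel subunits, 19 upstream adaptors and kinases, and 18 feedback genes and targets. In resting cells IkB proteins hold the Rel dimers in the cytoplasm. Adaptors such as MyD88 and the TRAF proteins activate the IkB kinase (IKK) complex, which marks the IkB proteins for destruction. The freed dimers then induce their own inhibitors, among them IkB alpha, the ubiquitin editor A20 and nucleases or binding proteins that shorten the life of inflammatory mRNAs, so that the response in macrophages is brief.

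Peritoneal macrophages of C57BL/6 mice 6 weeks old were compared between 2 genotypes. The Ch25h_WT group is labelled ApoE-/-/Ch25h+/+ and the Ch25h_KO group ApoE-/-/Ch25h-/-, so by label both lack apolipoprotein E and they differ at cholesterol 25-hydroxylase, the enzyme that makes 25-hydroxycholesterol. The labelled Apoe state was not borne out by an equal Apoe level in the groups, as given below. Cells had been elicited with 3% thioglycolate, a sterile irritant, injected 3 days before collection, and were cultured in serum-containing medium with no further stimulus named in the labels. Each group held 2 libraries. How the 12 mice of a group were divided between its libraries is not said, so a p-value here reflects the spread of these 4 libraries alone, part of which may be technical. Values are FPKM, fragments scaled to transcript length and to the mapped fragments of the library, which can be compared between genes because they are per length. Differences are Ch25h_KO minus Ch25h_WT on the log2(FPKM + 1) scale and were tested with limma over the 10074 loci whose mean reached 1 FPKM. The threshold was a Benjamini-Hochberg adjusted p under 0.05.

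Ch25h was 63.3 and 65.3 FPKM in the Ch25h_WT libraries against 4.25 and 5.53 FPKM in the Ch25h_KO libraries. Apoe, by label disrupted in every library, was 614 and 609.9 FPKM against 3683 and 3373 FPKM, a ratio of 5.76 (limma adjusted p = 0.00127). FPKM of a locus does not tell the transcript of a disrupted allele from that of a functional one. Of 8 macrophage genes, Cd68 (469 to 492 FPKM) and Lyz2 (19566 to 20537 FPKM) were high in all 4 libraries, and like Itgam and Mertk they overlapped between the groups. The others did not overlap. Cd14 was 5178 and 5288 FPKM in Ch25h_WT against 6870 and 6751 FPKM in Ch25h_KO. Fcgr1, which was low, was 4.31 and 4.22 against 4.83 and 4.78 FPKM. On the lower side, Emr1 was 418 and 425 against 381 and 388 FPKM, and Csf1r was 306 and 316 against 274 and 291 FPKM. Markers of some other cells also moved with the groups. The summed level of 7 mast cell genes was 223 and 229 FPKM against 156 and 159 FPKM. Of the 6 tested, 5 were lower at an unadjusted p under 0.05, as were 11.5% of all tested loci. For 7 neutrophil genes it was 71.6 and 82.2 against 115 and 116 FPKM. That sum rests on S100a8 and S100a9, while Elane and Mpo, which define neutrophil granules, were listed at or below 0.125 FPKM. Camp, Cxcr2 and Mpo, all under the filter, went the other way from the sum, with both Ch25h_KO libraries below both Ch25h_WT libraries. Camp was 0.906 and 1.36 FPKM against 0.880 and 0.471 FPKM, and Cxcr2 was 0.507 and 0.665 against 0.492 and 0.428 FPKM. For 5 monocyte genes the sum was 131 and 138 against 162 and 174 FPKM. The part of these cells in the values below was not tested, and in bulk RNA fewer cells of a type and less RNA per cell cannot be told apart.

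Promoter sequence is shown first because NF-kB binds the kB element, and several feedback genes carry it just upstream of their start. RefSeq promoter windows (build GRCm38.p6, 250 bases before and 50 after each start) were found for 35 of the 42 genes. The stretches below are the bases before the start, read 5′ to 3′ on the gene's strand. In the first 5 the capitals mark GGANTTTCC on either strand, a strict form of the kB element. In Zc3h12a and Bcl3, the genes with the largest differences on the higher side, they mark a looser form on either strand, GGG and CC with any 5 bases between, whose matches can overlap each other and the strict form.
Nfkbia (IkB alpha; chr12:55492648-55492897, minus strand): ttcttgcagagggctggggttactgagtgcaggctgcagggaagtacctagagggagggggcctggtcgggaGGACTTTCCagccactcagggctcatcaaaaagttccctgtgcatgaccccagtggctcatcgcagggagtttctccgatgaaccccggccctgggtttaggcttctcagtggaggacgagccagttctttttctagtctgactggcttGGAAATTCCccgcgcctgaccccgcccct
Ier3 (a survival factor; chr17:35821549-35821607, plus strand): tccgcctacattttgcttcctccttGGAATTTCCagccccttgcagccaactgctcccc
Icam1 (an adhesion receptor; chr9:21015762-21015820, plus strand): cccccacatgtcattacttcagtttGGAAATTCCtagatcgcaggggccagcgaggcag
Tnfaip2 (a TNF-induced protein; chr12:111442549-111442607, plus strand): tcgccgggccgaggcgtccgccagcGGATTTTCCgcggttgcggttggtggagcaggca
Tnfaip3 (A20; chr10:19015411-19015459, minus strand): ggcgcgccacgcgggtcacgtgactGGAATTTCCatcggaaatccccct
Zc3h12a (Regnase-1; chr4:125127882-125128131, minus strand): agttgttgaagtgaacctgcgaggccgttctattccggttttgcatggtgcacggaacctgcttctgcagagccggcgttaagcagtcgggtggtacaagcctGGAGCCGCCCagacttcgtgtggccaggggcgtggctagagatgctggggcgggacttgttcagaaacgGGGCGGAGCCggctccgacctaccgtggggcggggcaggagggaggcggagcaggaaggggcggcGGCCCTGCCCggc
Bcl3 (an atypical IkB; chr7:19822756-19823005, minus strand): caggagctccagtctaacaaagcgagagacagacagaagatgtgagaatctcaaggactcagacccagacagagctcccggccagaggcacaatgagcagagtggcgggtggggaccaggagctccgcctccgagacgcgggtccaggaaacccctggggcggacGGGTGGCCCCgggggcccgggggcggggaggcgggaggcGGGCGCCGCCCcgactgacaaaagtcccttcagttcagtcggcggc

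The Nfkbia stretch held the strict form at 178 and at 29 bases before the start. In Ier3 it began 139 bases, in Icam1 153 bases, in Tnfaip2 87 bases and in Tnfaip3 24 bases before the start. Over whole windows of 300 bases, 9 of 45 windows of the NF-kB genes (20%) held GGANTTTCC, against 412 of all 32851 RefSeq windows (1.25%) and 135 of 9948 windows of genes tested here (1.36%). The looser form was in 34 of the 45 windows (75.6%), against 50.8% of all windows and 67.8% of windows of tested genes, so it separates few genes. Windows of a gene can overlap, and the matching windows of Nfkb2 share a single site. By gene, the strict form was in 8 of 35 NF-kB genes with a window (22.9%), against 1.64% of tested genes with a window. It was in 5 of 17 feedback genes with a window and in 2 of 15 upstream genes (Map3k7 and Myd88). Of the 3 Rel subunits with a window Nfkb2 held it. These are matches of letters only. No match says only that the letters are not in the window. The 8 genes with the strict form had a median difference of 0.0056 in these libraries, from -0.13 to 0.21, and the 27 genes with a window and no such match had a median of 0.020.

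The NF-kB genes were abundant and differed little between the genotypes. Their median level was 47.2 FPKM, against 11.1 FPKM over all tested loci, and all 42 passed the filter on low values. None of the 42 passed the adjusted threshold, where 0.437% of all tested loci did. At an unadjusted p under 0.05 the count was 9 of 42 (21.4%), against 20.9% of all tested loci, so the share of genes with a low p was that of the background. The 9 leaned to the higher side. Of them 7 were higher in Ch25h_KO (16.7%, against 9.38% of all tested loci) and 2 were lower (4.76%, against 11.5%). Both Ch25h_KO libraries lay above both Ch25h_WT libraries for 18 of the 42 genes (42.9%, against 23.4% of all tested loci). They lay below for 9 (21.4%, against 30.3%), and the groups overlapped for 15. The median difference was 0.021, against -0.014 over all tested loci. This lean was not stable. With libraries scaled to equal total FPKM apart from Saa3, 5 were higher and 3 lower, and the median of all loci moved to -0.036. The count on the higher side fell whichever library was left out, and for some libraries the lean was then gone. Such a fit rests on fewer libraries, and lost power cannot be told from a change in these genes. Over those fits the median difference of the 42 genes ran from 0.0032 to 0.033.

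**Figure D1:**
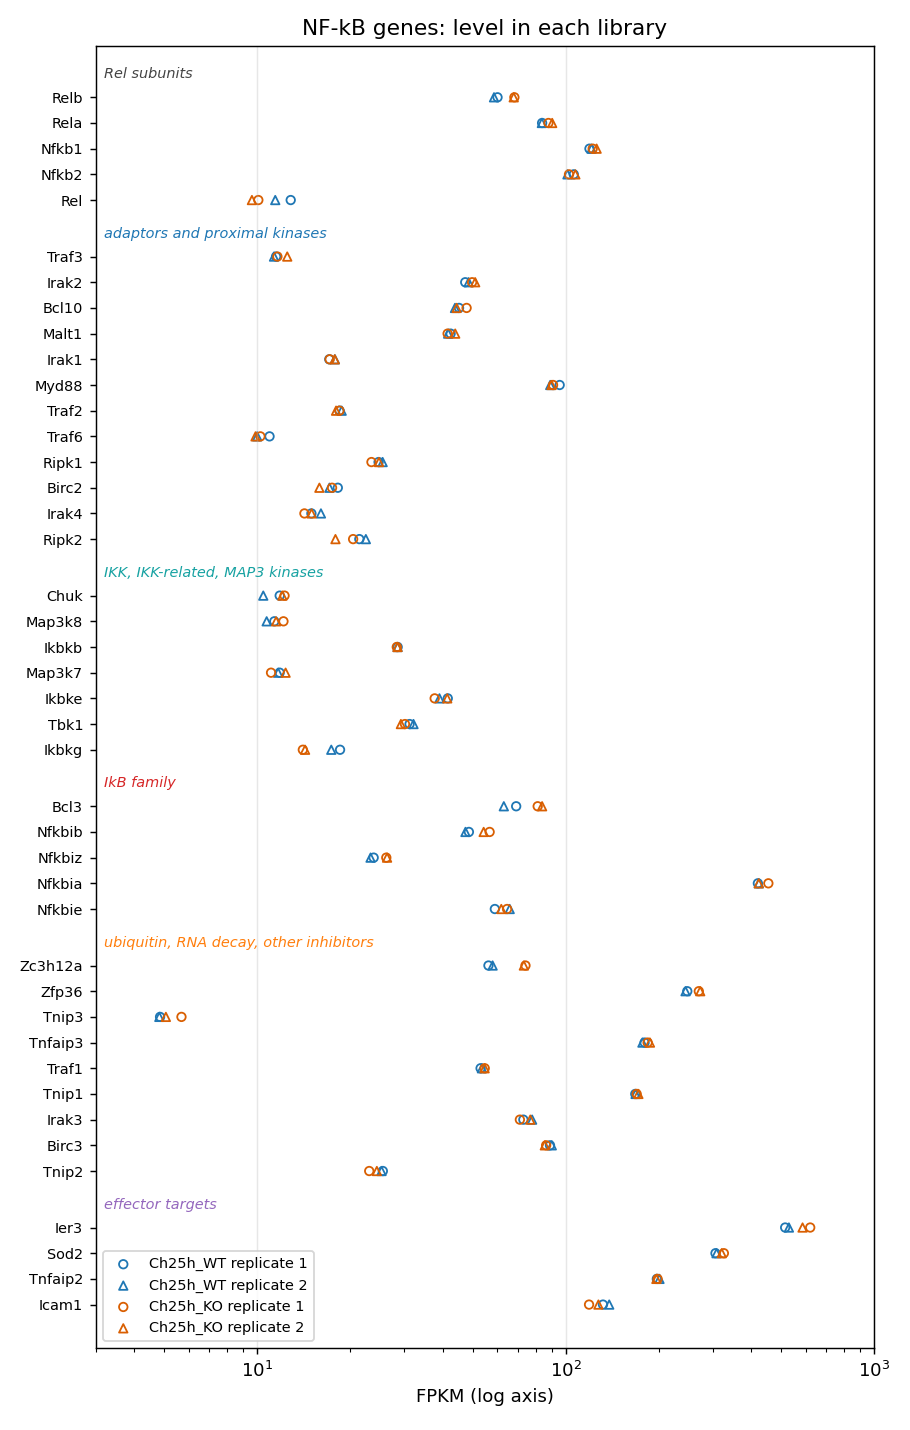
FPKM of each of the 42 NF-kB genes (log axis) in the 4 libraries, with blue for Ch25h_WT, orange for Ch25h_KO, circles for replicate 1 and triangles for replicate 2. The genes run from 4.82 FPKM (Tnip3) to 621 FPKM (Ier3), and the distance between genotypes is small beside the distance between genes.

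The Rel subunits are the DNA-binding members of the pathway. Nfkb1 and Nfkb2 encode the precursors of p50 and p52, and Rela, Relb and Rel encode the partners that activate transcription. Relb, the partner of p52 in the non-canonical arm, was 60.1 and 58.6 FPKM in Ch25h_WT against 68.2 and 67.9 FPKM in Ch25h_KO. Rel, which encodes c-Rel, was the lowest subunit, at 12.8 and 11.4 FPKM against 10.1 and 9.62 FPKM. Relb and Rel thus lay on opposite sides, each with both libraries of a group apart from the other group. The difference was 0.19 for Relb (SE 0.052, limma adjusted p = 0.158) and -0.27 for Rel (SE 0.074, limma adjusted p = 0.158), and neither passed. Rela, the main activating subunit, was 83.9 and 83.7 FPKM against 87.9 and 90.5 FPKM, and its interval ran from -0.049 to 0.23 (95% limma interval). Nfkb1 was 119 and 121 FPKM against 122 and 126 FPKM. Nfkb2 was 106 and 101 FPKM against 103 and 108 FPKM, and its groups overlapped. The 5 subunits had a median difference of 0.044.

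Upstream genes came next, beginning with the adaptors and kinases that sit at the receptors. None of these 12 had an unadjusted p under 0.05, and their median difference was -0.029. Myd88, the adaptor shared by most Toll-like receptors and the IL-1 receptor, was the most abundant, at 95.6 and 89.1 FPKM in Ch25h_WT and 91.0 and 90.0 FPKM in Ch25h_KO. Its groups overlapped, and its interval ran from -0.19 to 0.13. Irak1, a kinase recruited by MyD88, was 17.1 and 17.9 FPKM against 17.2 and 17.8 FPKM. Its locus in the table also carries the symbols of Mir718 and Mir5132, which lie within it. Irak4, the kinase that activates IRAK1, was 15.0 and 16.1 FPKM against 14.2 and 15.0 FPKM. Irak2, a relative that sustains signalling late in the response, was 47.3 and 48.5 FPKM against 49.8 and 50.9 FPKM. For Irak2 the groups did not overlap, but the difference was 0.071 (limma adjusted p = 0.494).

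Ripk2, the kinase downstream of the peptidoglycan sensors NOD1 and NOD2, stood furthest from 0 among these 12 genes. It was 21.4 and 22.5 FPKM in Ch25h_WT against 20.5 and 17.9 FPKM in Ch25h_KO, a difference of -0.19 (SE 0.081, limma adjusted p = 0.281). Both Ch25h_KO libraries were the lower ones, and they differed from each other by nearly as much as the group means did. Ripk1, the death-domain kinase of the TNF receptor complex, was 24.8 and 25.5 FPKM against 23.5 and 24.8 FPKM, with overlap. The ubiquitin ligases of these complexes were near each other in both groups. Traf2 was 18.5 and 18.8 FPKM against 18.5 and 18.02 FPKM, Traf3 was 11.5 and 11.3 FPKM against 11.6 and 12.5 FPKM, and Traf6 was 10.97 and 10.0 FPKM against 10.2 and 9.88 FPKM. Birc2, which encodes the ligase cIAP1, was 18.3 and 17.2 FPKM against 17.5 and 15.9 FPKM. Bcl10, a scaffold of the CARD signalling complex, was 45.1 and 43.8 FPKM against 47.8 and 44.3 FPKM. Malt1, the protease of that complex, was 42.4 and 41.6 FPKM against 41.4 and 43.9 FPKM. Both overlapped between the groups, with differences of 0.049 and 0.021 with intervals from -0.12 to 0.21 and from -0.13 to 0.17.

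The kinases further down held the single upstream gene with an unadjusted p under 0.05. It was Ikbkg, which encodes NEMO, the regulatory subunit without which the canonical IKK complex does not form. Ikbkg was 18.6 and 17.4 FPKM in Ch25h_WT against 14.1 and 14.3 FPKM in Ch25h_KO. Both Ch25h_KO libraries were below both Ch25h_WT libraries, and their mean was 21.1% lower. The difference was -0.32 (SE 0.059, 95% interval from -0.48 to -0.17), and it did not pass (limma adjusted p = 0.110, over the alternatives 0.0193 to 0.332). The catalytic partners of NEMO did not share this. Ikbkb (IKK beta) was 28.5 FPKM in each Ch25h_WT library and 28.4 and 28.5 FPKM in Ch25h_KO, with an interval from -0.14 to 0.13. Chuk (IKK alpha) was 11.8 and 10.5 FPKM against 12.3 and 12.1 FPKM, a difference of 0.12. The difference between Ikbkg and its partners was not tested.

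The other kinases of this tier were Tbk1 and Ikbke, IKK relatives that act mainly on interferon regulatory factors, and the MAP3 kinases Map3k7 (TAK1) and Map3k8 (TPL2). Tbk1 was 31.2 and 32.1 FPKM against 30.1 and 29.2 FPKM, a difference of -0.090 (limma adjusted p = 0.408). Ikbke was 41.5 and 39.0 FPKM against 37.6 and 41.3 FPKM, with overlap. Map3k8 was 11.4 and 10.7 FPKM against 12.2 and 11.5 FPKM, and Map3k7 was 11.8 and 11.7 FPKM against 11.1 and 12.4 FPKM. Across all 19 upstream genes 0 were higher (against 9.38% of all tested loci) and 1 was lower (5.26%, against 11.5%) at an unadjusted p under 0.05, and the median difference was -0.028.

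**Figure D2:**
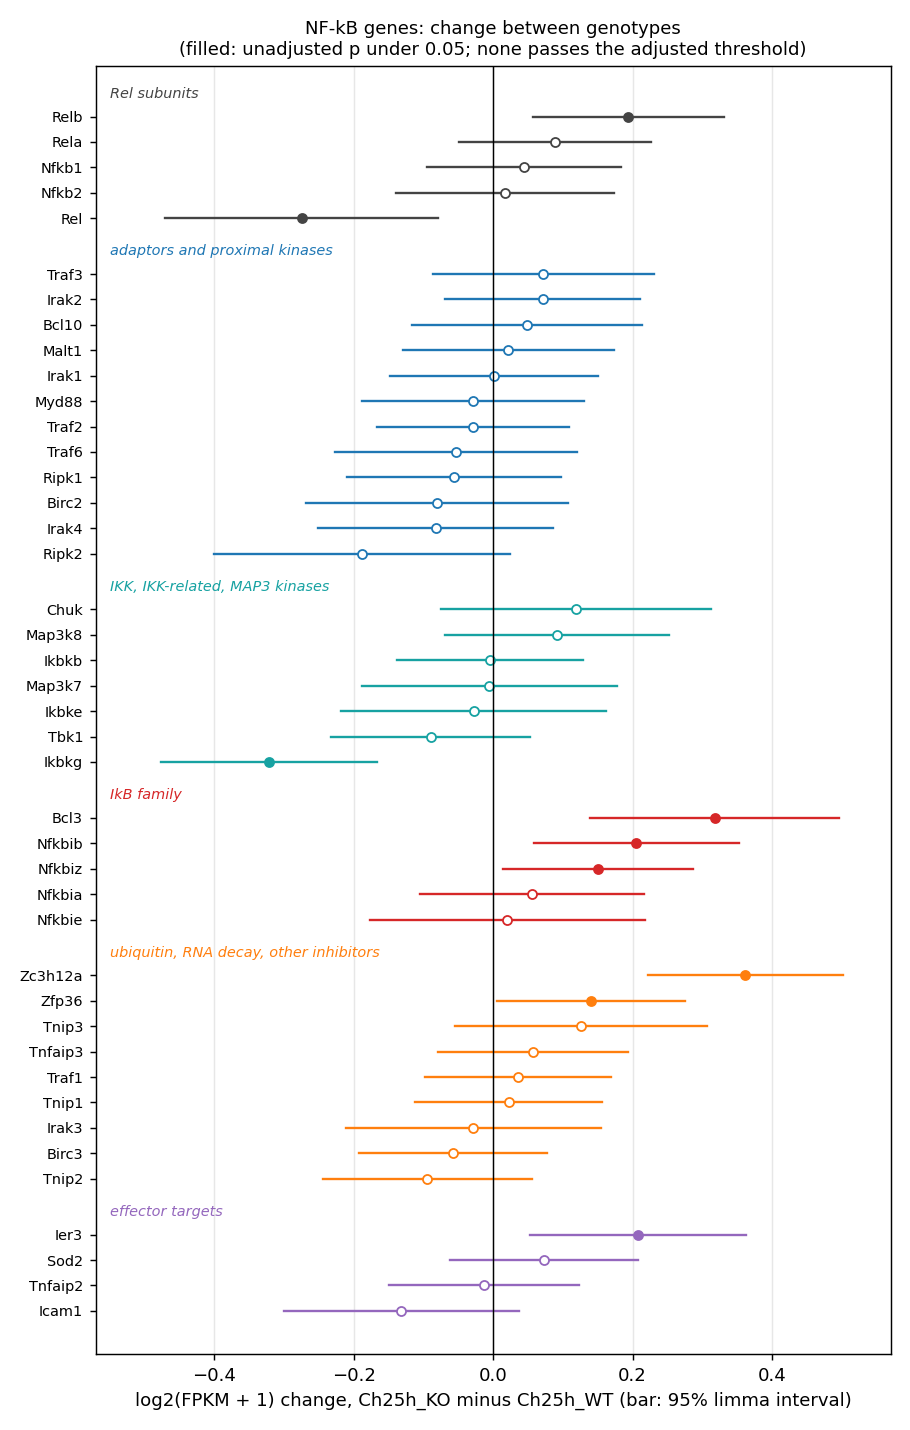
Difference in log2(FPKM + 1), Ch25h_KO minus Ch25h_WT, for each of the 42 NF-kB genes with its 95% limma interval, grouped by role. Filled points have an unadjusted p under 0.05, and they are Relb, Rel, Ikbkg, Bcl3, Nfkbib, Nfkbiz, Zc3h12a, Zfp36 and Ier3.

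The 18 feedback genes and targets held 6 of the 7 genes on the higher side, among them the classical inhibitor Nfkbib and the effector target Ier3. They were grouped by role, and their induction by NF-kB in these cells was not tested. Of 18 feedback genes 6 were higher (33.3%, against 9.38% of all tested loci) and 0 lower (against 11.5%) at an unadjusted p under 0.05. Their median difference was 0.056, and 11 (61.1%) had both Ch25h_KO libraries above both Ch25h_WT libraries, against 23.4% of all tested loci. Whether feedback and upstream genes differ from each other was not tested. In the plot of cumulative shares by role the feedback curve lies to the right of the curve for all loci over most of its length, and the upstream curve is steeper than that curve and crosses it near its median.

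**Figure D3:**
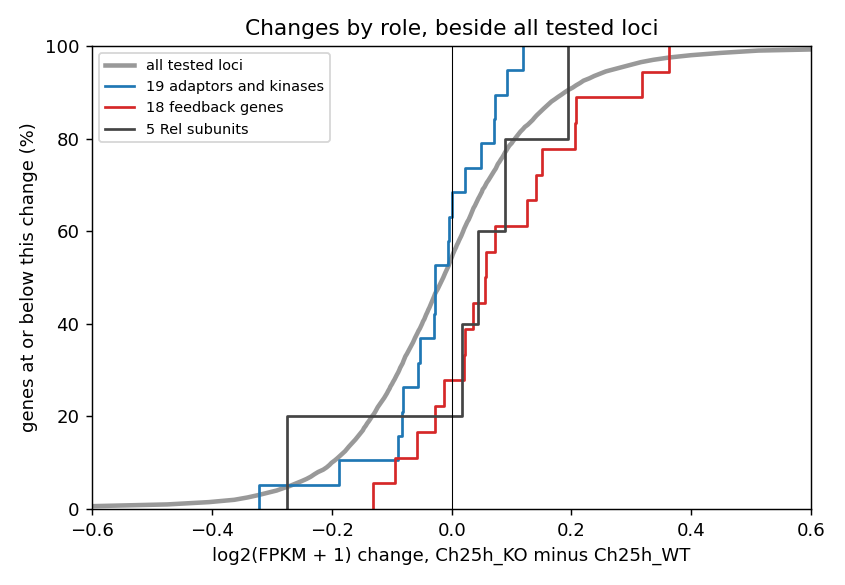
Share of genes (%) at or below each difference in log2(FPKM + 1), for all 10074 tested loci (grey), the 19 upstream adaptors and kinases (blue), the 18 feedback genes (red) and the 5 Rel subunits (black). The medians are -0.014, -0.028, 0.056 and 0.044, and loci beyond 0.6 on either side are not drawn.

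Of the 5 IkB family genes 3 were higher at an unadjusted p under 0.05 (60%, against 9.38% of all tested loci). The other 2 overlapped between the groups, and the median difference was 0.15. Bcl3 and Nfkbib lie on chromosome 7, which is treated below. Of the 3 IkB family genes elsewhere 1 was higher at that p. Bcl3, a nuclear IkB that binds p50 and p52 dimers, was 69.1 and 63.0 FPKM in Ch25h_WT against 81.2 and 83.9 FPKM in Ch25h_KO. Its mean was 24.9% higher, a difference of 0.32 (SE 0.068, limma adjusted p = 0.120). Nfkbib, which encodes the classical inhibitor IkB beta, was 48.6 and 47.3 FPKM against 56.7 and 54.2 FPKM, a difference of 0.21 (SE 0.056, limma adjusted p = 0.160). Nfkbiz, a nuclear IkB needed for secondary response genes such as Il6, was 23.9 and 23.3 FPKM against 26.2 and 26.4 FPKM, a difference of 0.15 (limma adjusted p = 0.212). In each of these 3 genes both Ch25h_KO libraries lay above both Ch25h_WT libraries, as for 23.4% of all tested loci. The gene of the best-known feedback inhibitor did not share this. Nfkbia was 419.9 and 423 FPKM against 454 and 423 FPKM, and the value above the rest was that of Ch25h_KO replicate 1. Its interval ran from -0.10 to 0.22. Nfkbie (IkB epsilon) was 59.0 and 65.9 FPKM against 64.6 and 61.9 FPKM, with overlap. In the GENCODE annotation the exons of Nfkbib overlap those of Ccer2, and those of Bcl3 overlap the antisense gene Gm16175. The sources do not say whether fragments were assigned by strand, and without strand such pairs cannot be told apart.

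The next 9 genes were grouped here as ubiquitin, RNA decay and other inhibitors. Most act against the signal after it has started, by editing ubiquitin chains, by destroying mRNA or by occupying the receptor complex. That description does not cover Birc3 and Traf1, whose proteins belong to the TRAF2 complex. Zc3h12a had the smallest p of the 42. It encodes Regnase-1, an endonuclease that cuts inflammatory mRNAs such as that of Il6. Zc3h12a was 56.2 and 58.0 FPKM in Ch25h_WT against 74.1 and 73.2 FPKM in Ch25h_KO. The gap was wide beside the distance between replicates, and the mean was 29.0% higher. The difference was 0.36 (SE 0.053, 95% interval from 0.22 to 0.50), short of the threshold (limma adjusted p = 0.0883). When only loci averaging 5 FPKM or more were tested it passed (limma adjusted p = 0.0421), the single NF-kB gene to do so, where 2.42% of those loci passed. Over the alternatives the adjusted p of Zc3h12a ran from 0.00178 to 0.326. Zfp36, which encodes tristetraprolin, a protein that binds AU-rich elements and speeds mRNA decay, was 248 and 245 FPKM against 270.2 and 273 FPKM. Its groups did not overlap, with a difference of 0.14 (SE 0.051, limma adjusted p = 0.228).

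Genes of the A20 complex lay closer together. Tnfaip3 (A20) was 180.2 and 177 FPKM against 184 and 188 FPKM, with an interval from -0.080 to 0.19. Its binding partners were Tnip1, at 168 and 169 FPKM against 169.9 and 172 FPKM, Tnip2, at 25.6 and 25.3 FPKM against 23.1 and 24.4 FPKM, and Tnip3, at 4.84 and 4.82 FPKM against 5.68 and 5.06 FPKM. For Tnfaip3, Tnip1 and Tnip3 both Ch25h_KO libraries were the higher ones, and for Tnip2 they were the lower ones. None of the 4 had an unadjusted p under 0.05. Irak3, a kinase relative that blocks release of IRAK1 from the receptor, was 72.9 and 77.9 FPKM against 71.1 and 76.8 FPKM. Birc3 (cIAP2) was 89.0 and 90.2 FPKM against 86.5 and 85.6 FPKM. Traf1, which joins the cIAP proteins to TRAF2, was 53.0 and 53.5 FPKM against 54.7 and 54.6 FPKM. For Birc3 and Traf1 the groups did not overlap, with differences of -0.057 and 0.036.

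The 4 effector targets were the most abundant group, with a median level of 257 FPKM. Ier3, an immediate early gene that limits cell death, was 515 and 529 FPKM in Ch25h_WT against 621 and 586 FPKM in Ch25h_KO. Both Ch25h_KO libraries were above both Ch25h_WT libraries, with a difference of 0.21 (SE 0.059, limma adjusted p = 0.168). Sod2, the mitochondrial superoxide dismutase, was 306 and 308 FPKM against 326 and 321 FPKM, a difference of 0.073. Icam1, the ligand of leukocyte integrins, lay on the other side, at 132 and 138 FPKM against 119 and 128 FPKM. Its difference was -0.13 (95% interval from -0.30 to 0.037). Tnfaip2 was 198 and 201 FPKM against 199 and 197 FPKM, with overlap. Ier3 and Icam1 both carry the strict kB letters shown above and sat on opposite sides.

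Several of the genes on the higher side share a chromosome with Apoe. Relb, Bcl3, Zfp36 and Nfkbib are the 4 of the 42 genes on chromosome 7, and all 4 were higher at an unadjusted p under 0.05. On the other chromosomes it was 3 of 38 genes on the higher side (7.89%) and 2 on the lower (5.26%). Over all tested loci these shares were 9.38% and 11.5%. Among all 755 tested loci of chromosome 7, 13.4% were higher at that p, the highest share of the 20 chromosomes compared. By gene order in RefSeq, Relb lies 6 protein-coding genes before Apoe and Bcl3 lies 5 after it, while Zfp36 and Nfkbib lie 245 and 262 genes away. Of the 24 other tested genes among the 30 on each side of Apoe, 6 were higher (25%, against 9.38% of all tested loci). On the lower side were 3 (12.5%, against 11.5%), a share near the background. The table shows Apoe itself at 2.52 (limma adjusted p = 0.00127) and its neighbour Apoc1 at -1.14. Without the genes on chromosome 7 the median difference of the IkB family was 0.055 in place of 0.15, and that of all NF-kB genes was 0.0090 in place of 0.021. Of the 15 feedback genes elsewhere 3 were higher at an unadjusted p under 0.05, in place of 6 of 18 (against 9.38% of all tested loci). The pattern was noticed after the values were seen, and the part of the Apoe region in the values of Relb and Bcl3 was not tested.

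**Figure D4:**
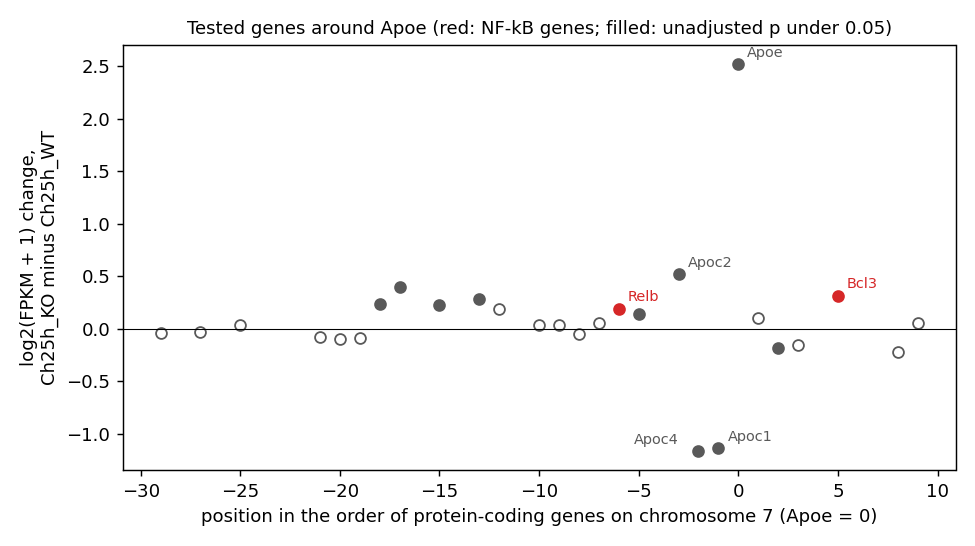
Difference in log2(FPKM + 1), Ch25h_KO minus Ch25h_WT, of the tested genes among the 30 protein-coding genes on each side of Apoe, by gene order on chromosome 7. Relb and Bcl3 (red) are at 0.19 and 0.32, beside Apoe at 2.52 and Apoc1 and Apoc4 at -1.14 and -1.16, and filled points have an unadjusted p under 0.05.

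A spread model that follows the level of a gene gave a different count. With limma's trend and robust options 7 of the 42 genes passed (16.7%), against 7.8% of all tested loci. Relb, Bcl3, Nfkbib, Zc3h12a, Zfp36 and Ier3 rose under that model, with adjusted p from 0.00178 to 0.0477, and Ikbkg fell (limma adjusted p = 0.0193). That model called a larger share of abundant loci. Above a mean of 10 FPKM, which 41 of the 42 genes reach, 12% of all loci passed and 17.1% of the NF-kB genes.

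Other genes of the pathway, a list of 49 of which 47 were tested, gave 3 on the higher side (6.38%, against 9.38% of all tested loci) and 6 on the lower (12.8%, against 11.5%) at an unadjusted p under 0.05, shares near the background. None passed the adjusted threshold, and their median difference was -0.012. Nod1, the cytosolic sensor that signals through RIPK2, was 23.0 and 22.5 FPKM against 17.3 and 18.3 FPKM, a difference of -0.34 (limma adjusted p = 0.0992). Nod2, its relative, was 9.44 and 9.96 FPKM against 8.50 and 8.49 FPKM (limma adjusted p = 0.200). Both Ch25h_KO libraries were the lower ones for Nod1 and for Nod2, as for 30.3% of all tested loci. Pdlim2, a ligase that ends the nuclear life of RelA, was 9.05 and 11.2 FPKM against 7.70 and 7.82 FPKM. On the higher side, Zfp36l2, a relative of Zfp36, was 62.9 and 61.6 FPKM against 74.5 and 72.9 FPKM (difference 0.24, limma adjusted p = 0.123). Card9, the adaptor of C-type lectin receptors, was 13.5 and 13.9 FPKM against 16.99 and 16.2 FPKM. Sharpin, a subunit of the linear ubiquitin ligase, was 16.5 and 15.2 FPKM against 20.6 and 17.8 FPKM.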

How the data were processed

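RNA-seq values of 4 libraries, 2 per genotype, were analysed. The authors deposited FPKM per locus and library; the unit was inferred from the values, since the header does not name it. Per the submitters' processing notes the tools were bcl2fastq, Cufflinks 2.2.1 and TopHat2 2.0.14, with genome build mm9. Annotation, strandedness and filters were not given in the sources used here. Lines of 1 locus held the same values, and the 24192 lines were joined into 23735 loci. Absolute depth is not stated; relative depths recovered from values under 0.5 FPKM were 1 and 0.8 in the Ch25h_WT libraries and 0.824 and 0.77 in the Ch25h_KO libraries. The test was limma 3.58.1 (R 4.3.3) applied to log2(FPKM + 1), which understates changes of low genes, with genotype as the single term. The fit was run on simulated data with independent normal noise, whose spread was taken from this same fit, and 6.3% of calls there were false. That setting favours the fit, so it cannot show how the test behaves on the spread of real libraries. Exons of 12 of the 42 genes overlap another annotated gene in GENCODE vM21. Chromosomes and gene order came from RefSeq GRCm38.p6, which placed 96.9% of tested loci. The rule for named genes took, in each role, up to 4 genes with the smallest unadjusted p in full, and of the other pathway genes the 3 higher and 3 lower ones with the smallest p; the remaining NF-kB genes are given by their values. The members and lists were chosen with earlier results of these data known. Alternatives covered the pseudocount, filter, spread model, scaling, replicate block and each library left out; 1, without the genes on chromosome 7, was added after seeing the data.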

Additional observations from a re-analysis of the deposited data

How the results depend on the processing

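No NF-kB gene passed in the fit as reported, and 1 passed when loci averaging 5 FPKM or more were tested and 7 with trend and robust options, where 3 of the other pathway genes passed. Over all loci the count of 44 became 18 with no filter, 175 at 5 FPKM, 786 with trend and robust options and 6 with the replicate block, and 13 to 21 with a library left out. In that case the lone library is assumed to vary like the other group. Deviations of libraries with the same number in the title had a correlation of 0.012 over 10074 loci. With 2 libraries per group the crossed numbers give -0.012 by construction, so this value cannot tell whether the numbers pair the samples. With the replicate block 0 NF-kB genes passed and 7 had an unadjusted p under 0.05. That count, 9 as reported, was 4 to 7 with a library left out and 5 without the genes on chromosome 7, an alternative chosen after seeing the data. The median difference of the NF-kB genes was 0.036 with median-centred libraries, -0.0042 with equal total FPKM apart from Saa3, 0.0090 without chromosome 7, and 0.0032 to 0.033 with a library left out. These scalings moved the median of all loci to 0.00078 and -0.036. With median centring the medians were -0.014 for adaptors and receptor-proximal kinases, 0.17 for the IkB family, 0.051 for the ubiquitin, RNA decay and other inhibitors and 0.045 for effector targets. With equal totals apart from Saa3 they were -0.053, 0.13, 0.011 and 0.0046, with 0.019 for Rel subunits and -0.030 for IKK and related kinases. The IkB median was 0.16 with a pseudocount of 0.1, 0.055 without chromosome 7 and 0.13 to 0.17 with a library left out. With a library left out the adaptors ran from -0.027 to -0.0099 and the IKK and related kinases from -0.069 to 0.038. Of the 42 genes, 29 kept their sign in all 11 planned settings, among them all 9 with an unadjusted p under 0.05. The other 13 did not (Nfkb2, Myd88, Irak1, Traf6, Bcl10, Malt1, Ikbkb, Ikbke, Map3k7, Nfkbie, Tnip1, Irak3 and Tnfaip2), and their direction is not settled by these data. The filter, the spread model and the replicate block cannot change a sign. Leaving a library out cannot either where the groups do not overlap, as in all 9. A kept sign thus does not settle the direction of the 29. The cause of the shifts over the settings was not tested.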

Other observations

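Ratios of FPKM within a library do not depend on scaling between libraries, and a few were computed after the values were seen. Ikbkg stood at 0.651 and 0.610 of Ikbkb in the Ch25h_WT libraries and at 0.496 and 0.502 in the Ch25h_KO libraries. Rel stood at 0.153 and 0.137 of Rela against 0.115 and 0.106. Nfkbib stood at 0.116 and 0.112 of Nfkbia against 0.125 and 0.128. In these 3 ratios the libraries of the genotypes did not overlap. Nfkbia stood at 5.01 and 5.05 times Rela against 5.16 and 4.67, and Birc2 at 0.205 and 0.190 of Birc3 against 0.202 and 0.186, and in both the groups overlapped. None of the ratios was tested.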
